A study of Mus musculus with 40 samples.

Results

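The 42 genes described here are a named set of cell cycle and DNA replication genes, picked by symbol from the 43430 genes of the table and matched through their Ensembl identifiers. They comprise 19 genes of DNA replication, 17 genes of mitosis and 6 regulators of G1 and of entry into S phase. All 42 passed the filter on low counts, as did 11853 genes in all. Their mRNA was measured by RNA-seq in bone marrow-derived macrophages (BMDMs), which are grown from marrow progenitors in the growth factor M-CSF, from 5 WT and 5 NDI1 mice. Both genotypes carried Vav-iCre, a recombinase active throughout the blood lineages. NDI1 mice also carried, at Rosa26, a yeast NADH dehydrogenase preceded by a floxed stop, which passes electrons from NADH to ubiquinone without pumping protons and is not blocked by piericidin A. WT littermates had Vav-iCre without that allele. The mice were male and female littermates on a mixed C57Bl/6 background, and the donor cells of each mouse were split over 4 treatments: untreated (U), 100 ng/ml LPS for 4 h (L), 500 nM piericidin A, which blocks complex I of the respiratory chain (P), and LPS added 30 min after piericidin A (PL). This gave 40 libraries in 8 groups of 5. The comparisons ask whether LPS and complex I inhibition changed these genes, and whether NDI1 altered the effect of the inhibitor.

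A cell that will divide first licenses its replication origins by loading the MCM helicase through Cdc6 and Cdt1, then copies its DNA at forks held by the clamp Pcna, and finally separates its chromosomes under Cdk1 and the B cyclins. The D and E cyclins and Myc promote passage through G1, and the E2F factors activate many replication genes. BMDMs divide in M-CSF, and LPS is known to stop this proliferation. In bulk RNA, fewer cells in cycle and less RNA in each such cell cannot be told apart.

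Library totals lay between 6950748 and 13552070 counts. The 8 macrophage markers summed to 19670 to 38690 CPM (counts scaled to each library's TMM-normalized size) and were present in every library, while the erythroid markers Hba-a1 and Hbb-bs had at most 3 counts in any library. The 11 neutrophil and granulocyte progenitor markers, cells whose precursors divide, stood apart in 2 mice. Their summed level was 584.2, 1204, 1871 and 3210 CPM in the U, L, P and PL libraries of WT mouse 496, and 575.7 to 977.0 CPM in those of NDI1 mouse 503, against 33.93 to 210.4 CPM in the 32 libraries of the other 8 mice. Calls that changed without mouse 496 are therefore given beside the comparisons that include its libraries. A total of 15 members overlap another annotated gene in the table (Mcm7 shares its locus with Mir25, Mir93 and Mir106b), and since the use of strand in the counting is not stated these counts are less certain.

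The promoters of the replication and mitosis members differed in the short motifs they held. RefSeq windows on GRCm38 from 250 bases before to 50 bases after the start were at hand for 34 of the 42 genes (39 windows), and were searched on both strands for an E2F-like site (TTTCCCGC, TTTCGCGC, TTTGCCGC or TTTGGCGC, whose matches on opposite strands can overlap), for the cell cycle homology region (CHR, TTTGAA), for CCAAT and for the E-box CACGTG. An E2F-like match lay in 8 of 21 windows of replication genes (38.1%), 1 of 14 of mitosis genes (7.14%) and 2.26% of all 32851 windows, or 3.93% of the 11769 windows of genes that passed the filter. A CHR match lay in 10 of 14 windows of mitosis genes (71.4%), 3 of 21 of replication genes (14.3%) and 17.9% of all windows, or 12.3% of those of tested genes. CCAAT was in 13 of 14, 12 of 21, 37.4% of all and 37.6% of those of tested genes, and the E-box in 0 of 14, 3 of 21, 7.15% and 10.0%. A match is a description of letters and does not show binding. The stretches before the start of 5 genes that recur below are printed 5′ to 3′ on the gene's strand, with E2F-like and CHR matches in capitals, and the bases inside the gene's span in the table were left off.
Mcm6 (chr1:128359706-128359905, minus strand, E2F-like in capitals): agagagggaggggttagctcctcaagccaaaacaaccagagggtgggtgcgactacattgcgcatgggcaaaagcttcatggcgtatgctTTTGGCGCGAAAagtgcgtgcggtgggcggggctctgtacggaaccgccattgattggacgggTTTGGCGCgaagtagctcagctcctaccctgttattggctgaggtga
Mcm5 (chr8:75109309-75109508, plus strand, E2F-like in capitals): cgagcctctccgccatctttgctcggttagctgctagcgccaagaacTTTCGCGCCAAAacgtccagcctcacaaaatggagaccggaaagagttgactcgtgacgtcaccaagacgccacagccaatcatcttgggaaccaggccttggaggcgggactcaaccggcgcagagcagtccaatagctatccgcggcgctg
Cdk1 (chr10:69352939-69353112, minus strand, E2F-like, then CHR in capitals): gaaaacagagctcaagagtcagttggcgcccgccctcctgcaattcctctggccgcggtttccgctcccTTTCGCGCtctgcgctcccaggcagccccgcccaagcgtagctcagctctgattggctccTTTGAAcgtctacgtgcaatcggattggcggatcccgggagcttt
Mki67 (chr7:135716380-135716579, minus strand, CHR in capitals): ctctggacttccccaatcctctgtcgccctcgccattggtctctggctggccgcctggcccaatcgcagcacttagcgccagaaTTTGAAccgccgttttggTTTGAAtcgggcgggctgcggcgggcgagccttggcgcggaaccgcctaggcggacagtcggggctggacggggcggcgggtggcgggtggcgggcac
Cdc20 (chr4:118437353-118437543, minus strand, CHR in capitals): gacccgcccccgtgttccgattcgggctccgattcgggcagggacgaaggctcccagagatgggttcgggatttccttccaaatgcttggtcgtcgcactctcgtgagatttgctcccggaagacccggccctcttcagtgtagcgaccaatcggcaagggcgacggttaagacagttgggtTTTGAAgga
Mcm5 and Mcm6 each hold a pair of overlapping E2F-like matches on opposite strands, and Mki67 holds 2 CHR matches. Of the 8 replication genes with an E2F-like match, 5 fell with LPS in WT in the test described below (Cdc6, Lig1, Mcm3, Mcm7 and Pola1), Mcm6 rose and 2 were not called (Cdt1 and Mcm5), and in NDI1 4 fell, 1 rose and 3 were not called. E2f2 and Cdk1, which also hold an E2F-like match, fell in both genotypes. Of the 10 mitosis genes with a CHR match, 3 fell (Bub1b, Cdc20 and Cdk1), Mki67 rose and 6 were not called in each genotype. Over all genes tested 31.0% fell and 31.5% rose in WT, so the share of CHR genes that fell was near that of all genes.

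Many members were at low levels. The mean stayed under 10 CPM in all 8 groups in 25 of the 42 and under 5 CPM in 19, among them Ccnb1, Ccnb2, Aurka, Plk1 and Rrm2, and Cdc6 had at most 3 counts in 10 of the 40 libraries. The SD of log2 CPM within groups was above the median of genes at a like level in 30 of the 42. Small changes in the low genes could therefore be missed, and the lack of a call does not show that such a gene was unchanged.

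LPS lowered more members than it raised, most of them replication genes, and raised a smaller set that included Mki67, Tpx2 and cyclin E1. In WT BMDMs, 25 of 42 members changed with LPS (edgeR quasi-likelihood test, Benjamini-Hochberg adjusted p under 0.05 over 11853 genes), 9 higher and 16 lower. Over all genes tested, 31.5% were called higher and 31.0% lower. In NDI1 BMDMs 26 changed, 9 higher and 17 lower, against 31.5% and 31.2% of all genes. The same 9 genes were higher in both genotypes, and 15 were lower in both. The median log2 fold change was -0.60 for replication, -0.50 for mitosis and 0.76 for the G1 and S entry members in WT, and -0.01 over all genes tested. The total share of members called was near that of all genes. The 19 replication members divided 10 lower to 3 higher in WT and 9 lower to 3 higher in NDI1, with the rest not called, and the 17 mitosis members 4 lower to 3 higher and 6 lower to 3 higher. With the mouse as a block 28 members passed in WT (9 higher, 19 lower), when 4310 of 11853 genes were higher and 4220 lower. In NDI1 31 passed with it (9 higher, 22 lower), when 4313 and 4265 genes did. Replication members then divided 12 lower to 3 higher in WT and 13 to 3 in NDI1, and mitosis members 5 to 3 and 7 to 3. Without the block, some calls rested on single mice. In WT Ccne2 and Tyms lost the LPS call without mouse 496, where Birc5, Cenpf and Rrm2 gained it. Bub1b, Ccne2 and Tyms lost it without mouse 520, Aurkb and Tyms without mouse 449, Aurkb, Cdc20, Cdc6 and Pola1 without mouse 452, and Cdc6 without mouse 453. In NDI1 Tyms lost it without mouse 503, where Mcm5 and Rrm2 gained it, Tyms also without mouse 460 or 461, Ccnb1 without mouse 447, 461 or 521, and Ccne2 without mouse 521.

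Markers of other cell types moved with LPS too. Of 5 dendritic cell markers, Ccr7 (3.81 ± 0.72) and Xcr1 (4.03 ± 0.34) rose in WT and both rose in NDI1, and the summed level went from 1.421 to 5.723 CPM untreated to 10.93 to 33.2 CPM with LPS in WT. The other dendritic cell markers were not called in either genotype. With the mouse as a block 3 of the 5 were higher in WT, and 2 were higher and 1 lower in NDI1. Of 4 T cell markers only Lck was tested, and it rose (5.82 ± 0.36 in WT and 5.92 ± 0.37 in NDI1), while Cd3d had at most 3 counts in any library. The summed granulocyte lineage markers with LPS were 1.05 to 2.06 times the untreated level over the 10 mice, with none called in either genotype by edgeR without the block and 4 called higher with it in each. B cell, stromal and stem and progenitor markers gave no call without the block. With it, of 4 B cell markers tested 2 were higher and 1 lower in WT, and 1 was lower in NDI1. Of 4 stromal markers 1 was higher in WT, and of 3 stem and progenitor markers 1 was higher and 1 lower in NDI1. The part of such cells in the LPS results was not tested.

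**Figure D1:**
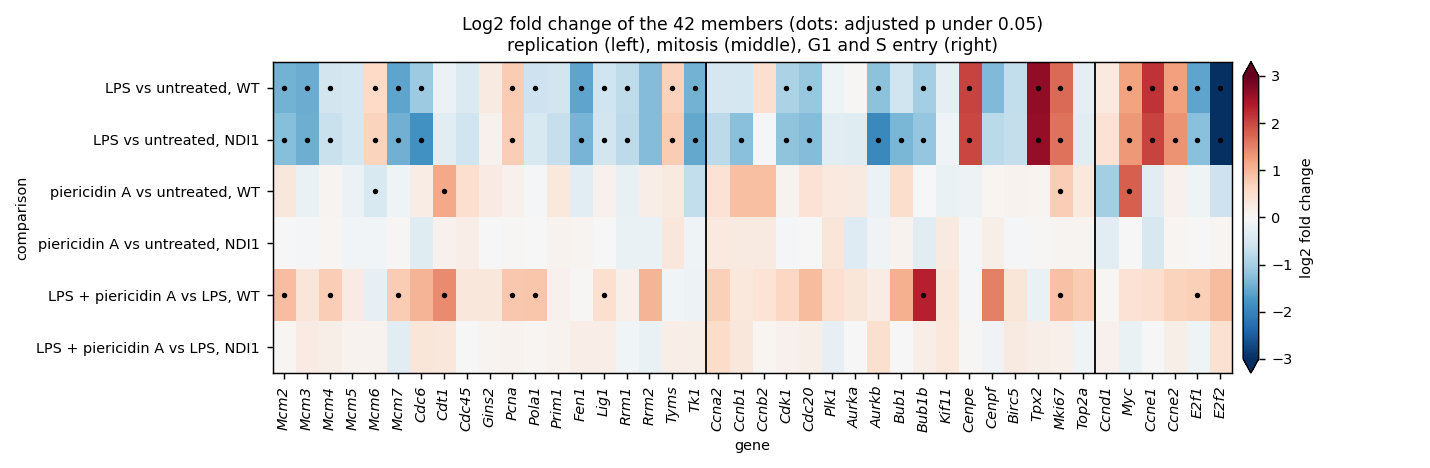
Heat map of the log2 fold change (colour, limited at 3 either way) of the 42 members (columns) in 6 comparisons (rows), with a dot where the adjusted p was under 0.05. The LPS rows hold 25 and 26 dots, the piericidin A rows of WT 4 and 10, and those of NDI1 none.

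Among the licensing and helicase genes, Mcm2, Mcm3, Mcm4, Mcm7 and Cdc6 fell and Mcm6 rose with LPS in both genotypes. Mcm2 and Mcm7, subunits of the same hexamer as Mcm6, fell by 1.42 and 1.58 on the log2 scale in WT. Mcm6 was at 62.0, 47.8, 55.3, 56.4 and 39.9 CPM in the untreated WT libraries (mice 449, 452, 453, 496 and 520, the order used for WT from here on) and at 82.1, 84.8, 78.4, 83.8 and 68.1 CPM with LPS. The groups did not overlap, and the log2 fold change was 0.60 ± 0.14 (SE, adjusted p = 0.000233). In NDI1 it was 0.67 ± 0.14 (adjusted p = 7.02e-05). Mcm5, a further subunit, did not pass without the block. Its levels were 7.66, 5.85, 8.26, 12.0 and 6.22 CPM untreated and 4.90, 3.85, 6.36, 8.23 and 4.24 CPM with LPS, lower in each of the 5 WT mice with groups that overlapped (log2 fold change -0.53 ± 0.28, adjusted p = 0.102). With the mouse as a block it was -0.54 (adjusted p = 0.00160).

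Cdc6, the loader of the helicase, was at 0.978, 0.623, 1.15, 0.715 and 0.444 CPM in untreated WT libraries and at 0.545, 0.214, 0.223, 0.686 and 0.151 CPM with LPS. These are 1 to 5 counts a library with LPS, lower in all 5 mice although the ranges overlapped (log2 fold change -1.10 ± 0.42, adjusted p = 0.0238). In NDI1 mice 447, 460, 461, 503 and 521, the order used for NDI1 from here on, Cdc6 went from 0.981, 1.5, 1.38, 1.08 and 0.787 CPM to 0.220, 0.113, 0.270, 0.402 and 0.586 CPM, with no overlap (-1.82 ± 0.42, adjusted p = 0.000286). The licensing partner Cdt1 did not pass in either genotype without the block, with log2 fold changes of -0.17 and -0.35, and passed in NDI1 with it (-0.37).

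At the fork, LPS raised the clamp Pcna and lowered the flap nuclease Fen1 (-1.59 in WT, -1.39 in NDI1) and the ligase Lig1 (-0.60 and -0.56). Pcna was at 125, 85.2, 83.3, 133 and 120 CPM untreated and 211, 150, 135, 198 and 225 CPM with LPS in WT. It was higher in all 5 mice with no overlap (0.75 ± 0.22, adjusted p = 0.00349). In NDI1 it went from 85.0, 76.4, 116, 118 and 130 to 136, 128, 177, 191 and 239 CPM, higher in every mouse with ranges that overlapped (0.73 ± 0.22, adjusted p = 0.00432). Of the genes that supply deoxynucleotides, Rrm1, a ribonucleotide reductase subunit, and the thymidine kinase Tk1 fell in both genotypes, and the thymidylate synthase Tyms rose in both (0.70 and 0.75), although in 3 of 5 and 4 of 5 mice.

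Rrm2, the S phase subunit of ribonucleotide reductase, did not pass in either genotype without the block. Its levels were 2.04, 1.31, 2.64, 3.97 and 1.52 CPM in untreated WT and 0.545, 0.641, 0.669, 1.92 and 0.908 CPM with LPS, lower in all 5 mice (-1.29 ± 0.62, adjusted p = 0.0667). Mouse 496 was the highest in both groups, and without it Rrm2 passed. With the mouse as a block the log2 fold change was -1.39 (adjusted p = 0.00117).

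The mitosis members split into a small group that rose together with LPS and a larger group that fell or did not pass. Tpx2, a spindle assembly factor, and Cenpe, a kinetochore motor, had log2 fold changes of 2.66 and 2.03 in WT and 2.63 and 2.01 in NDI1. Tpx2 was at 7.75, 4.92, 8.46, 7.95 and 5.90 CPM untreated and 54.9, 40.4, 33.4, 55.4 and 37.6 CPM with LPS in WT, with the lowest LPS library well above the highest untreated one (SE 0.18, adjusted p = 3.86e-15). Mki67, the proliferation marker Ki-67, was at 16.8, 33.1, 23.4, 29.6 and 39.3 CPM untreated and 107, 103, 65.3, 104 and 85.1 CPM with LPS, again with no overlap (1.71 ± 0.25, adjusted p = 2.64e-07). In NDI1 Mki67 went from 32.3, 21.6, 26.5, 29.7 and 31.1 to 91.8, 71.6, 101, 89.0 and 79.4 CPM (1.62 ± 0.25, adjusted p = 7.43e-07).

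Cdk1, the kinase that starts mitosis, moved the other way. It was at 9.86, 6.60, 6.97, 6.92 and 5.58 CPM in untreated WT libraries and 2.18, 3.20, 5.69, 5.08 and 2.42 CPM with LPS, lower in all 5 mice with 1 value of each group inside the other's range (-0.94 ± 0.26, adjusted p = 0.00233). In NDI1 it went from 6.41, 6.63, 9.25, 6.90 and 6.44 to 3.07, 3.73, 2.43, 3.88 and 2.34 CPM with no overlap (-1.20 ± 0.27, adjusted p = 0.000197). Cdc20, which activates the anaphase complex, fell by 1.14 and 1.31 on the log2 scale in WT and NDI1, the kinase Aurkb by 1.24 and 1.93, and the spindle checkpoint kinase Bub1b by 1.02 and 1.17.

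Ccnb1, cyclin B1, was among the low genes. It was at 1.30, 1.43, 1.49, 0.874 and 1.21 CPM in untreated WT and 0.272, 0.214, 1.34, 1.51 and 1.06 CPM with LPS, with full overlap (-0.53 ± 0.49, adjusted p = 0.357). In NDI1 it went from 1.13, 0.641, 1.46, 0.807 and 2.15 to 0.220, 0.452, 0.405, 0.669 and 0.820 CPM and fell (-1.26 ± 0.53, adjusted p = 0.0357), while the difference between the genotypes was -0.73 ± 0.72 (adjusted p = 1.000). Birc5, Kif11, Top2a, Plk1, Aurka, Ccna2, Ccnb2 and Cenpf did not pass in either genotype with all mice in the fit and no block. Birc5 and Cenpf passed in WT without mouse 496, and with the mouse as a block Cenpf passed in WT (-1.45) and Ccna2 in NDI1 (-0.77).

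Of the G1 and S entry members, Ccne1, Ccne2 and Myc rose and E2f1 and E2f2 fell with LPS in both genotypes, although Ccne2 lost its call in WT without mouse 496 or mouse 520. Ccne1, cyclin E1, was at 2.45, 1.12, 2.37, 2.86 and 0.698 CPM untreated and 11.3, 6.20, 5.69, 10.4 and 9.08 CPM with LPS in WT, with no overlap (2.17 ± 0.33, adjusted p = 6.14e-07). In NDI1 it went from 1.28, 2.07, 2.44, 2.69 and 1.15 to 6.59, 7.12, 10.9, 7.23 and 7.50 CPM (2.03 ± 0.34, adjusted p = 2.17e-06). E2f2, one of the activating E2F factors, showed the steepest fall of any member. It went from 7.50, 6.35, 10.2, 8.43 and 4.82 CPM to 0.681, 0.320, 0.446, 1.24 and 0.303 CPM in WT, which is 2 to 9 counts a library with LPS (-3.64 ± 0.46, adjusted p = 9.92e-09), and in NDI1 from 6.71, 7.05, 9.58, 5.02 and 5.08 to 0.768, 0.565, 0.405, 0.402 and 0.703 CPM (-3.51 ± 0.45, adjusted p = 2.00e-08). E2f1 fell by 1.58 and 1.26 on the log2 scale.

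Myc was at 4.97, 4.05, 2.50, 7.55 and 4.00 CPM untreated and 5.04, 10.6, 14.2, 11.3 and 11.8 CPM with LPS in WT, higher in all 5 mice but by almost nothing in mouse 449 (1.21 ± 0.34, adjusted p = 0.00219). In NDI1 it went from 3.85, 2.14, 3.98, 6.09 and 6.73 to 12.4, 12.9, 8.78, 11.0 and 11.4 CPM, with no overlap (1.31 ± 0.34, adjusted p = 0.000966). Ccnd1, cyclin D1, did not pass. It ranged from 7.99 to 45.6 CPM in untreated WT (34.0, 15.8, 7.99, 45.6 and 11.7 CPM) and was at 27.8, 24.0, 30.8, 36.4 and 21.8 CPM with LPS, within the untreated range (0.30 ± 0.40, adjusted p = 0.537).

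**Figure D2:**
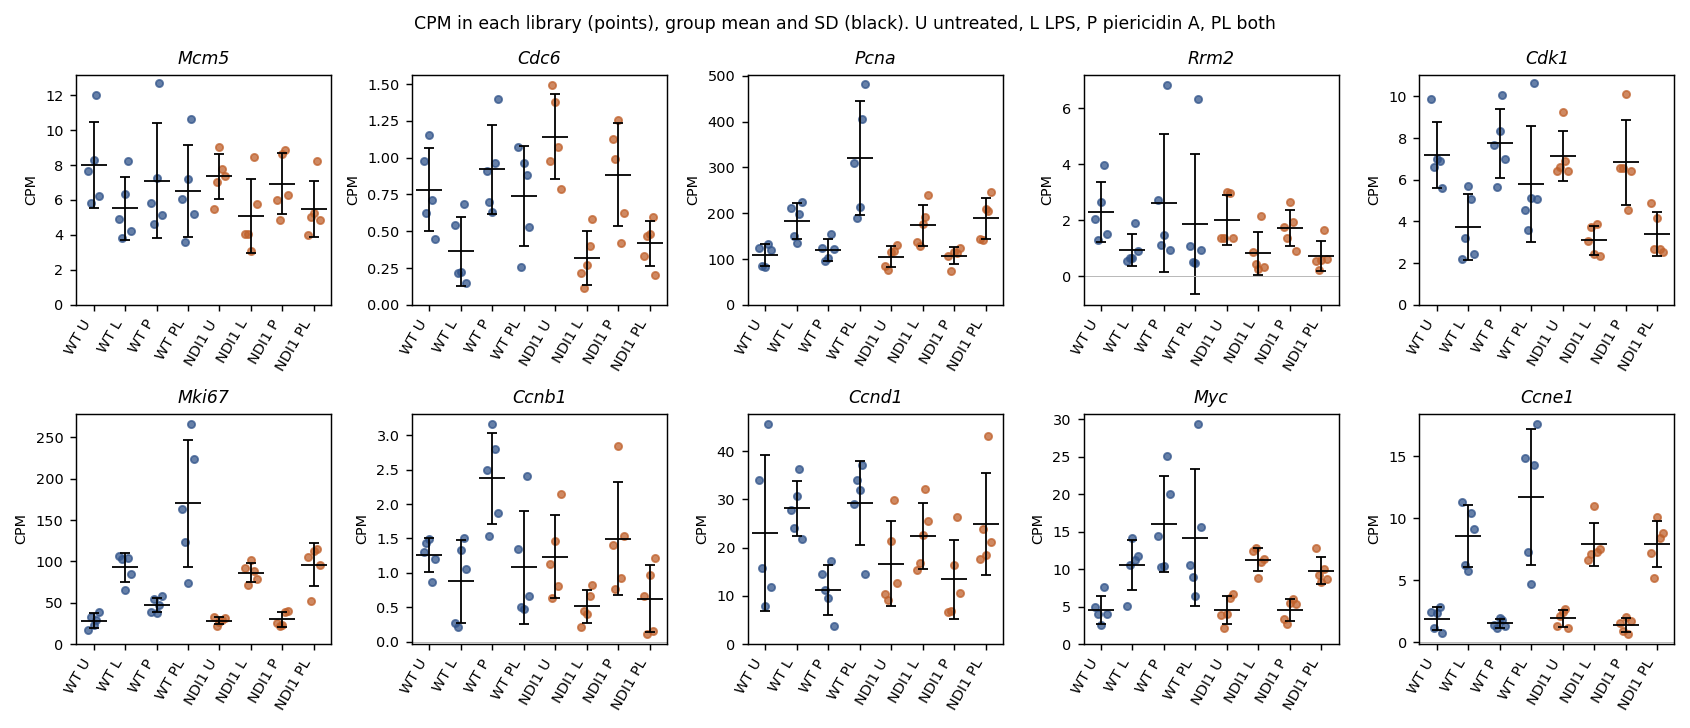
CPM of 10 members by group, with 1 point a library, the group mean as a horizontal dash and the SD as whiskers (n = 5). Mki67, Ccne1 and Pcna are higher in all LPS groups, and the WT PL groups of Pcna and Mki67 reach 482.6 and 266.0 CPM.

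A difference between the genotypes in their response to LPS was not detected. No member, and 0.0% of all genes, passed the edgeR test of the difference between the LPS effects in NDI1 and WT. No member had an unadjusted p under 0.05 and DESeq2 called none.

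Genes of the same pathways outside the 42 showed both directions too, against 31.5% of all genes called higher and 31.0% lower. Of 17 further licensing and origin firing genes tested in WT, 3 rose and 9 fell with LPS, with Gmnn, which holds Cdt1 in check, at -3.23 ± 0.26 and Mcm10 at 1.92 ± 0.26. Of 28 further fork, chromatin assembly and nucleotide genes, 5 rose and 12 fell, from Pole2 at -2.51 to the fork protection gene Timeless at 4.10. Of 41 further mitosis genes 5 rose and 18 fell, among them the phosphatase Cdc25b at -3.34 and the securin Pttg1 at 2.54. Of 18 kinases, D cyclins and E2F and MYC family genes 10 rose and 5 fell, with Ccnd2, cyclin D2, at 6.83 ± 0.45 and Skp2 at -2.60 ± 0.28. The brakes on the cycle divided 9 to 9 of 23, with Mxd1 at 4.35, Gadd45b at 3.84 and the pocket protein gene Rbl1 at 3.31 against Mxd4 at -3.26. Of 12 p53 target genes 3 rose and 6 fell, led by Sesn1 at -5.77, and of 8 genes of the M-CSF receptor and macrophage factors 6 rose and 2 fell, with the ligand gene Csf1 at 4.39.

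Piericidin A without LPS raised Myc, Cdt1 and Mki67 and lowered Mcm6 in WT BMDMs, so 4 of 42 members changed (3 higher, 1 lower, against 7.79% and 7.05% of all genes). The share of members called was below that of all genes. With the mouse as a block 9 passed, 5 higher with Ccnb1 and Ccnb2 added and 4 lower with Ccnd1, E2f2 and Tk1 added, when 17.2% and 16.9% of all genes did. The median log2 fold change over the members was 0.12. Myc went to 14.4, 10.3, 10.4, 25.0 and 20.1 CPM from the untreated levels given above, higher in all 5 mice with no overlap (1.80 ± 0.33, adjusted p = 0.000236). Cdt1, which licenses origins together with Cdc6, went from 39.7, 40.8, 39.2, 40.2 and 32.8 to 88.9, 65.2, 69.6, 116 and 81.7 CPM, also without overlap (1.13 ± 0.19, adjusted p = 7.65e-05). Mcm6 was at 39.5, 38.9, 48.0, 37.8 and 27.1 CPM, lower in all 5 mice with ranges that overlapped (-0.45 ± 0.14, adjusted p = 0.0236). Mki67 was at 39.3, 54.4, 38.0, 47.4 and 57.9 CPM (0.74 ± 0.25, adjusted p = 0.0386). Myc and Cdt1 passed without any single mouse. Mki67 and Mcm6 lost the call without mouse 496, when 3.91% of all genes were higher and 2.74% lower, and without mouse 449, when 5.44% and 4.47% were. Mki67 also lost it without mouse 520, 452 or 447. The 10 granulocyte lineage markers tested had a median log2 fold change of 1.30 here, with none called without the block and 7 higher with it. Of 3 stem and progenitor markers (median 1.11), none was called without the block and 1 was higher with it. The part of these cells in this result was not tested.

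In NDI1 BMDMs piericidin A without LPS gave no call among the members and in 0.0% of all genes, with no unadjusted p under 0.05 and no DESeq2 call among the members. Myc stayed at 3.31, 2.74, 5.50, 5.99 and 5.36 CPM (0.01 ± 0.34) and Cdt1 at 47.6, 46.6, 44.6, 45.2 and 33.6 CPM (0.13 ± 0.19). The test of the difference between the genotypes in this effect was passed by Myc alone among the members, at -1.79 ± 0.47 (adjusted p = 0.0475), when 1.27% of all genes passed. It lost the call in 9 of 16 alternatives. Cdt1 was at -1.0 ± 0.27 (adjusted p = 0.0506). With the block both passed, and so did 8.96% of all genes.

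Under LPS, piericidin A raised 10 members in WT BMDMs and lowered none, when 7.81% of all genes were higher and 8.92% lower. They were the licensing and helicase genes Mcm2 (0.93), Mcm4 (0.73), Mcm7 (0.77) and Cdt1 (1.41), the fork genes Pcna (0.80), Pola1 (0.84) and Lig1 (0.48), the mitosis genes Bub1b (2.34) and Mki67 (0.88), and E2f1 (0.71). The median log2 fold change was 0.48 over the 42 members and -0.02 over all genes tested, and 37 of 42 had a positive sign. In NDI1, where no member was called, 32 of 42 had a positive sign with a median of 0.12, against -0.01 over all genes tested. The members were measured in the same libraries, so their signs are not independent. The share of all genes with a positive sign was not computed. Of the 10, LPS alone had lowered 7 (Bub1b, E2f1, Lig1, Mcm2, Mcm4, Mcm7 and Pola1) and raised Mki67 and Pcna, comparisons that share the LPS libraries. With the mouse as a block 16 rose and none fell, with Bub1, Cdc20, Cdk1, Cenpf, Mcm3 and Top2a added, when 15.6% and 18.9% of all genes passed.

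Bub1b showed the largest rise. It was at 2.18, 2.03, 3.68, 1.92 and 0.606 CPM with LPS and at 8.45, 3.20, 7.85, 18.7 and 15.4 CPM with LPS and piericidin A, higher in every mouse, and only the PL library of mouse 452 lay inside the LPS range (2.34 ± 0.36, adjusted p = 2.82e-05). Cdt1 went from 33.0, 43.3, 34.0, 38.0 and 22.7 to 74.3, 63.6, 78.8, 132 and 107 CPM, and E2f1 from 6.67, 5.34, 6.36, 4.67 and 6.21 to 8.31, 7.17, 10.7, 11.8 and 9.98 CPM. Neither gene's groups overlapped (adjusted p = 4.68e-06 for Cdt1 and 0.00137 for E2f1).

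For the other called members the mice differed more. Pcna rose to 310, 190, 214, 407 and 483 CPM and Mki67 to 164, 124, 74.3, 266 and 224 CPM, higher in all 5 mice, and in both genes the PL libraries of mice 496 and 520 were the highest and the groups overlapped. Mcm4 was higher in 3 mice and lower in 2, and Pola1 higher in 4. Lig1, at an adjusted p of 0.0484, lost its call in 9 of 16 alternatives.

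Myc, Ccne1 and Ccnd1 did not pass in this comparison (0.43, 0.47 and 0.06), nor did Mcm5, Cdc6, Rrm2, Ccnb1, Cdk1, E2f2, Tpx2 or Mcm6. The PL levels were 10.6, 8.96, 6.41, 29.3 and 15.6 CPM for Myc, 14.9, 7.29, 4.65, 14.3 and 17.6 CPM for Ccne1 and 29.0, 33.9, 32.0, 37.1 and 14.6 CPM for Ccnd1. For Cdk1 they were 4.56, 3.58, 5.13, 10.6 and 5.06 CPM, and for Rrm2 1.07, 0.512, 0.481, 6.32 and 0.931 CPM, in both of which mouse 496 stood apart.

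**Figure D3:**
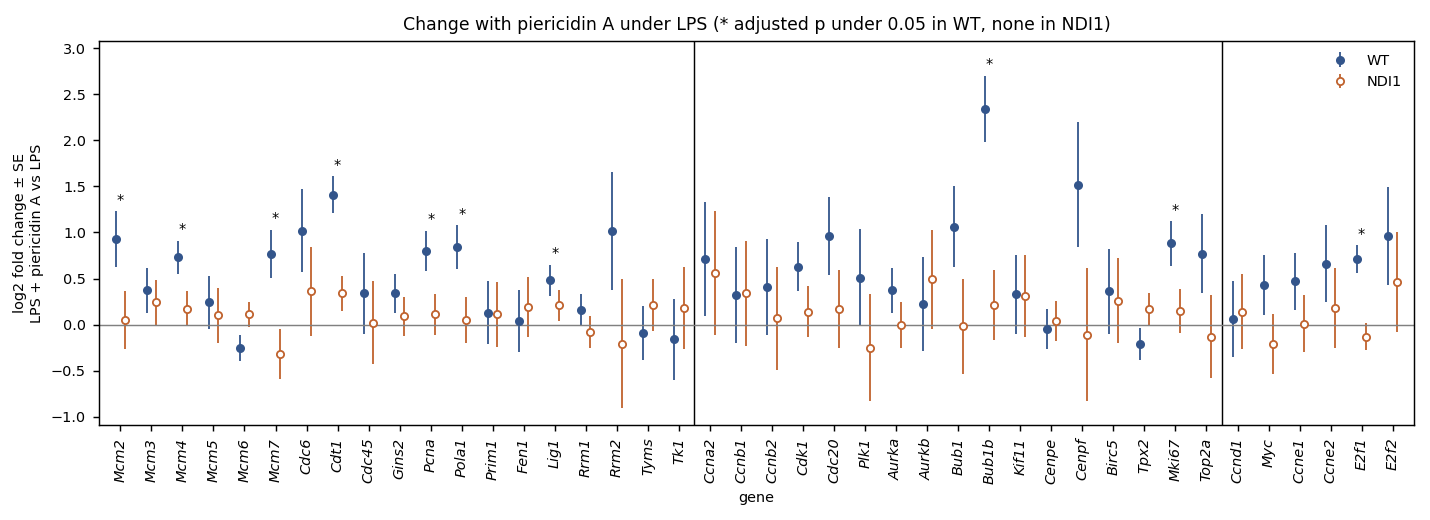
Log2 fold change with SE bars for piericidin A under LPS in WT (filled) and NDI1 (open) for each member, with an asterisk where the adjusted p in WT was under 0.05. In WT 37 of 42 values are above 0 and 10 carry an asterisk. In NDI1 32 of 42 are above 0, with a smaller median (0.12 against 0.48).

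The number of calls changed when single mice were left out. Mouse 496 had the highest level of 16 of 17 mitosis members and 12 of 19 replication members among the WT PL libraries. Without it 4 members passed (Bub1b, Cdt1, E2f1 and Mcm7), when 3.85% of all genes were higher and 3.28% lower, and without mouse 520 3 passed (Bub1b, Cdt1 and E2f1), when 3.67% and 3.38% of all genes did. The summed granulocyte lineage markers were higher with piericidin A under LPS in every WT mouse, 2.67 times the LPS level in mouse 496 and 1.37 to 2.15 times in the other 4, and the ratio was 0.961 to 1.33 in NDI1 mice. None of the 10 markers tested was called without the block and 6 were called with it, all higher (median log2 fold change 1.22). With the block 2 of 3 stem and progenitor markers were also higher (median 1.14), with a summed level of 1.361 to 5.625 CPM with LPS and 2.563 to 13.41 CPM with both, as were 1 of 5 dendritic cell and 1 of 4 stromal markers, and none of these was called without it. Without LPS the ratio was 3.20 in mouse 496 and 1.16 to 1.62 in the other WT mice, and 7 markers passed with the block. No marker of the 11 stayed at 3 counts or fewer throughout. The part of these cells in the result was not tested. Among NDI1 mice, mouse 503, with the highest marker sum in all 4 groups, had the highest level of 10 of 17 mitosis and 9 of 19 replication members with LPS, and of 9 of 17 and 8 of 19 with both agents. Mouse 461, with the lowest marker sum in all 4 groups, had the highest level of 11 of 17 mitosis members untreated and 13 of 17 with piericidin A.

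**Figure D4:**
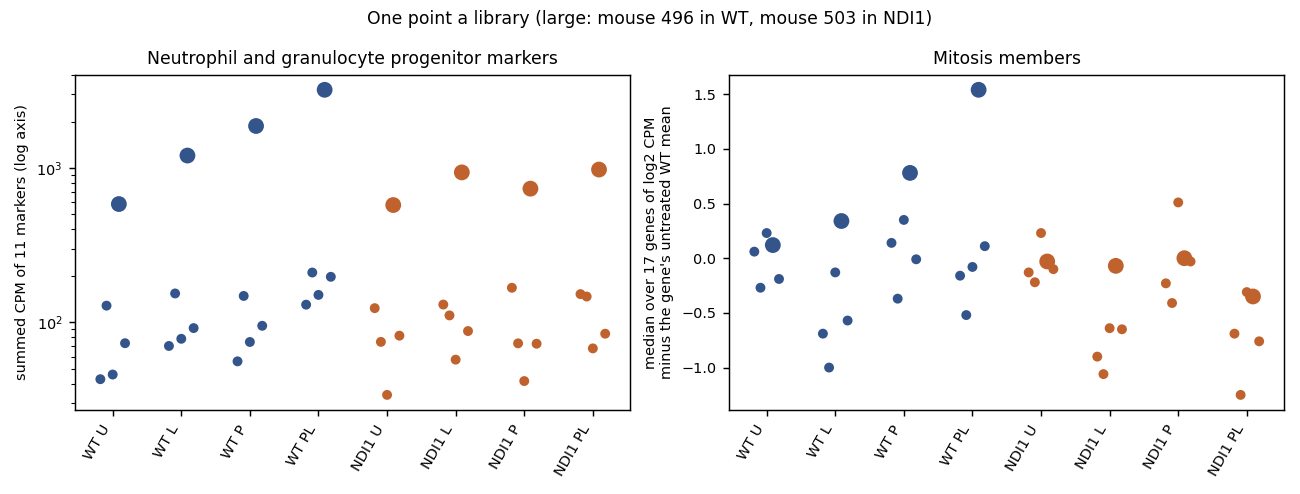
Left, the summed CPM of 11 neutrophil and granulocyte progenitor markers (log axis) in each library by group. Right, the median over the 17 mitosis members of log2 CPM minus the gene's untreated WT mean, with mouse 496 (WT) and mouse 503 (NDI1) as large points. Mouse 496 tops both panels in the WT PL group, at 3210 CPM and 1.54.

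In NDI1 BMDMs piericidin A under LPS gave no call among the members and in 0.0% of all genes, with no unadjusted p under 0.05 among the members in the fit without the block and no DESeq2 call. With the block none was called and 2 members had an unadjusted p under 0.05. Bub1b was at 1.76, 1.81, 2.43, 2.01 and 1.64 CPM with LPS and 3.77, 1.64, 2.81, 1.64 and 1.22 CPM with both, higher in 2 of 5 mice (0.21 ± 0.38). Cdt1 was higher in all 5 mice by a smaller amount, from 35.5, 28.1, 27.6, 43.9 and 22.0 to 51.8, 34.1, 32.3, 51.7 and 29.4 CPM (0.34 ± 0.19, adjusted p = 1.000). Pcna, at 144, 141, 208, 204 and 246 CPM with both, was also higher in all 5 mice (0.11 ± 0.22). Of the members, 3 passed the test of the difference between the genotypes, all with the smaller rise in NDI1: Bub1b (-2.12 ± 0.53, adjusted p = 0.0384), Cdt1 (-1.07 ± 0.27, adjusted p = 0.0444) and E2f1 (-0.84 ± 0.22, adjusted p = 0.0444), when 0.979% of all genes passed. No member passed it without mouse 496, 520, 449, 460, 461 or 503, when 0.226% to 0.556% of all genes passed, and 1 passed without mouse 447, 453 or 521, when 0.503% to 1.11% did. With the block 6 passed, with Mcm2, Mcm7 and Pcna added, when 9.51% of all genes did. In the same test the 10 granulocyte lineage markers had a median of -1.11, with none called without the block and 2 lower with it. The 3 stem and progenitor markers had a median of -1.34, with none called in either fit. The part of these cells in the difference was not tested.

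**Figure D5:**
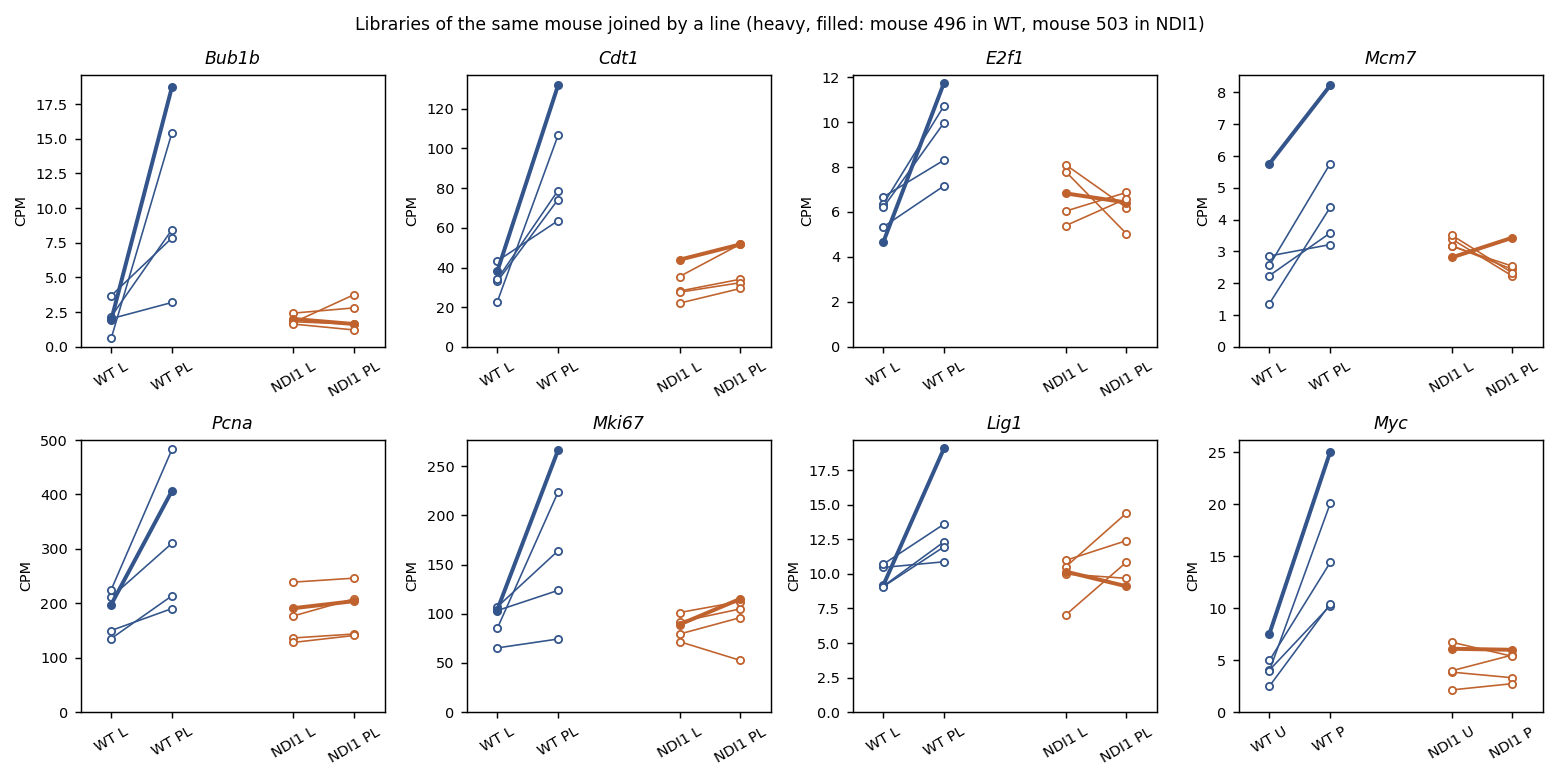
CPM of 7 members with LPS (L) and with LPS and piericidin A (PL), and of Myc untreated (U) and with piericidin A (P), with the libraries of a mouse joined and mouse 496 or 503 drawn heavy. Every WT line rises, while in NDI1 the Bub1b lines rise in 2 mice and the Cdt1 lines rise in 5.

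Set directly against WT, NDI1 BMDMs showed no detected difference in any member when untreated or with LPS. No edgeR call was made in either state among the members or in all genes (0.0%), with no unadjusted p under 0.05 and no DESeq2 call among the members. With piericidin A alone Cdt1 (-0.95 ± 0.19, adjusted p = 0.000913) and Myc (-1.80 ± 0.33, adjusted p = 0.000327) were lower in NDI1, when 7.8% of all genes differed. Neither gene's groups overlapped. With LPS and piericidin A 9 members were lower in NDI1 and none higher (Bub1, Bub1b, Cdt1, E2f1, Mcm4, Mcm7, Mki67, Pcna and Pola1), when 12.0% of all genes differed in either direction. The median over the members was -0.62. Bub1b was at -2.26 ± 0.36 (adjusted p = 4.70e-05) and Cdt1 at -1.19 ± 0.19 (adjusted p = 7.13e-05), and of the 9 the groups of Cdt1 and E2f1 did not overlap. Without mouse 496 4 passed (Bub1b, Cdt1, E2f1 and Mcm7), when 7.13% of all genes did, and without mouse 520 5 passed, when 6.25% did. Of 3 stem and progenitor markers, Kit, the stem cell factor receptor, was also lower in NDI1 (-1.45 ± 0.49, adjusted p = 0.0484), and their summed level was 2.563 to 13.41 CPM in WT and 1.162 to 5.077 CPM in NDI1. The median log2 difference of the 10 granulocyte lineage markers tested was -1.46, with none called. The part of these cells in this difference was not tested.

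LPS in the presence of piericidin A, that is PL against P, changed 16 members in WT (9 higher, 7 lower, when 25.8% and 26.2% of all genes were called) and 23 in NDI1 (8 higher, 15 lower, when 30.6% and 30.7% were). In WT members were called less often than all genes in each direction, and in NDI1 less often in total. Higher in both genotypes were Ccne1, Ccne2, Cenpe, Mcm6, Mki67, Pcna and Tpx2, and lower in both were Ccnb1, E2f1, E2f2, Fen1, Mcm2, Mcm3 and Mcm7. Ccne1 rose most in WT, by 2.96 ± 0.34 from P levels of 1.36, 1.12, 1.97, 1.75 and 1.31 CPM. E2f2 fell most, from 4.77, 4.53, 6.81, 5.87 and 1.96 CPM to 0.402, 0.768, 0.801, 2.78 and 0.931 CPM (-2.05 ± 0.42, adjusted p = 8.59e-05). In NDI1 the largest changes were those of Tpx2, from 7.32, 5.10, 6.62, 5.40 and 6.76 to 39.5, 36.7, 44.6, 52.1 and 39.9 CPM (2.76 ± 0.19), and of E2f2 (-3.12 ± 0.43). Ccnd1 rose in WT from 14.5, 11.2, 9.62, 17.2 and 3.73 CPM (1.38 ± 0.42, adjusted p = 0.00519), in all 5 mice. Without mouse 496 all 16 members still passed in WT and Cdk1 and Rrm1 were added. Ccnb1 lost the call in WT without any one of mice 449, 452, 453, 520, 447 or 461, and in NDI1 without mouse 447, 460, 461 or 503. In WT Mcm7 also lost it without mouse 449 or 452, and Mcm2 without mouse 449. In NDI1 Cdc6 lost it without mouse 447 or 461, Myc without mouse 447 and Aurkb without mouse 460. Mcm4 lost it there without mouse 461 and Cdc20 without mouse 521. Other members gained a call without single mice. With the mouse as a block 20 passed in WT (9 higher, 11 lower), with Aurkb, Prim1, Rrm1 and Tk1 added, when 30.5% and 32.0% of all genes did. In NDI1 31 passed with it (9 higher, 22 lower), with Ccnd1 added among the higher and Mcm5, Prim1, Lig1, Rrm2, Plk1, Cenpf and Top2a among the lower, when 35.4% and 35.6% of all genes did. Markers of other cell types moved in this comparison as well. The T cell marker Lck rose by 5.08 in WT and 5.48 in NDI1 on the log2 scale, and the dendritic cell markers Xcr1 (4.03 and 4.61) and Ccr7 (4.66 and 3.89) rose. The summed dendritic cell markers were 1.965 to 19.34 CPM with P and 11.17 to 59.57 CPM with PL in WT. Kit fell in NDI1 (-1.40 ± 0.48, adjusted p = 0.0116). None of the 10 granulocyte lineage markers tested was called without the block, and 5 in WT and 4 in NDI1 were higher with it, at summed levels of 55.96 to 1871 CPM with P and 130.3 to 3210 CPM with PL in WT and 41.71 to 735.0 and 67.88 to 977.0 CPM in NDI1. The part of such cells in these changes was not tested.

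In WT the effect of piericidin A itself differed with and without LPS for 2 of 42 members, a share near the 4.75% of all genes. They were Bub1b (2.35 ± 0.49, adjusted p = 0.00296) and E2f1 (0.84 ± 0.20, adjusted p = 0.0118). With piericidin A alone their log2 fold changes were -0.02 and -0.13, and neither passed. For Cdt1 the effects were 1.13 without and 1.41 with LPS, and the difference was 0.28 ± 0.27 (adjusted p = 0.637). With the block 10 members passed, 9 of them with the higher change under LPS and Myc with the lower, when 17.4% of all genes did. Without mouse 520 Bub1b alone passed, when 1.61% of all genes did. Without mouse 496 E2f1 lost its call, Bub1b kept it, and Mcm7 and Myc gained one, when 1.38% of all genes passed.

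Beside these members, and against 7.81% of all genes called higher and 8.92% lower, piericidin A under LPS raised 2 and lowered 2 of the 17 further licensing genes in WT, raised 5 and lowered 1 of the 28 fork genes, with the chromatin assembly subunit Chaf1b at 2.22 ± 0.28 and the single-strand binding protein Rpa1 at 1.22 ± 0.15, and raised 2 of the 41 mitosis genes, Cdc25b (1.85 ± 0.32) and Anln (1.26 ± 0.45). Cdk4 (0.47) was the only call among the 18 kinases, cyclins and family factors. The brakes divided 4 to 4, with Mxd4 at 1.5, Wee1 at 0.90 and Rb1 at 0.70 against Btg2 at -0.91. Of the p53 targets Plk2 (1.12) and Bbc3 (0.76) rose, and of the 8 genes of the M-CSF receptor list 1 rose and 3 fell. Without LPS the brakes Gadd45a (2.80 ± 0.28), Gadd45g (2.11 ± 0.38) and Gadd45b (1.56 ± 0.24) rose with piericidin A in WT, where 6 of 23 brakes rose and 3 fell, when 7.79% of all genes were called higher and 7.05% lower. None of the 7 lists held an edgeR call with piericidin A in NDI1, with or without LPS.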

How the data were processed

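mRNA of the 40 libraries was polyA-selected. Per the study's methods and the labels, Trimmomatic served the authors for trimming, STAR for mapping against mm10 and HTSeq for counting exonic reads. Neither the annotation version nor whether counting used strand is given in the sources used here. The values the authors deposited are whole-number counts per gene, not normalized, and the 1 column of unassigned reads was left out. The 42 genes and the other lists were chosen with earlier results of these data known. Library totals of 6950748 to 13552070 counts limit the precision of low genes.

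Counts were fitted with edgeR 4.0.16 in R 4.3.3, with TMM factors, filterByExpr over the 8 groups (11853 of 43430 genes) and the quasi-likelihood test, for all 8 groups together. P-values were Benjamini-Hochberg adjusted over all genes tested (threshold 0.05), and the SE is the log2 fold change over the square root of F. Contrasts were tested on simulated counts first. Alternatives were DESeq2 1.42.0, other size factors, other filters, only the compared libraries, the mouse as a block and each mouse left out. The 4 libraries of an animal share its number, and their deviations from the group means correlated (mean r 0.453 over 60 pairs, from 0.0995 to 0.769, against -0.107 over 240 pairs of different mice), so the numbers pair the samples. Values in every library are given for 10 members taken as textbook examples of each role (Mcm5, Cdc6, Pcna, Rrm2, Mki67, Ccnb1, Cdk1, Ccnd1, Myc and Ccne1) and for the called member with the largest rise and the largest fall in each comparison, where the mean log2 CPM was 1 or more. Those of Cdt1 and E2f1 were added after their values were seen. Of genes outside the 42, at most the 3 largest rises and falls of a list are named. The NDI1 transgene was not analysed here. Ensembl identifiers were matched to symbols for 42462 of 43430 genes, and promoter windows are from RefSeq (GRCm38.p6).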

Additional observations from a re-analysis of the deposited data

Results flagged for a closer look

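Single libraries stood apart from the other 4 of their group for several members, by a gap to the nearest library above Dixon's 95% critical value. Of 112 groups tested over 14 genes, 10 did so (8.93%). The critical value assumes independent, normally distributed values. These were CPM of genes from the same libraries, some at a few counts and some picked by their results here. The share flagged therefore cannot be set against a chance rate. Mouse 496 accounted for 4 of them, namely Rrm2 in WT with LPS (1.921 CPM) and, in WT with LPS and piericidin A, Rrm2 (6.324 CPM), Cdk1 (10.62 CPM) and E2f2 (2.783 CPM). Mouse 503 accounted for a further 4, namely Mcm6 in NDI1 with LPS (98.8 CPM) and, in NDI1 with both agents, Rrm2 (1.643 CPM), Ccnd1 (43.15 CPM) and E2f2 (2.389 CPM). The remaining 2 were in mouse 461, with Cdk1 untreated at 9.254 CPM and Ccne1 with LPS at 10.94 CPM. Mice 496 and 503 were also those with the highest granulocyte lineage markers, and mouse 461 the one with the lowest in NDI1. The part of those cells in these values was not tested.

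The effect of piericidin A differed between the genotypes by a test of the difference itself for 4 members (edgeR, adjusted p under 0.05). Of all genes, 1.27% passed this test without LPS and 0.979% with LPS. Under LPS the log2 fold change in NDI1 minus that in WT was -2.12 for Bub1b, -1.07 for Cdt1 and -0.84 for E2f1, and without LPS it was -1.79 for Myc. The call was lost in 9 of 15 alternatives for Bub1b, 11 of 16 for Cdt1, 10 of 16 for E2f1 and 9 of 16 for Myc.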

How the results depend on the processing

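Of 910 alternatives of 59 named member results, none reversed a direction, 107 lost the call and 14 gained it. The number of members called stayed within 1.5 times in 212 of 252 alternatives. With at least 10 counts in every library 21 members remained, of which 14 passed for LPS in WT, 14 for LPS in NDI1, 10 and 13 for LPS over piericidin A in WT and NDI1, and 1 for the change of the piericidin A effect by LPS. With the mouse as a replicate block the counts were 9 for piericidin A in WT, 16 for piericidin A under LPS in WT, 2 and 6 for the difference between genotypes without and with LPS, and 10 for the change by LPS, and the block moved no other count by over 1.5 times. It could not be fitted between genotypes, which are different mice. With only the compared libraries 4 passed for piericidin A under LPS in WT, 2 for NDI1 against WT with both agents and 0 for the difference between genotypes with LPS. That difference had 0 calls without a filter on low counts, and the one without LPS had 0 with RLE factors and 2 with DESeq2. With 1 mouse left out the counts ranged from 21 to 26 (LPS in WT), 24 to 28 (LPS in NDI1), 2 to 4 (piericidin A in WT), 3 to 10 (piericidin A under LPS in WT), 13 to 18 and 20 to 25 (LPS over piericidin A in WT and NDI1), 2 to 3 and 4 to 11 (NDI1 against WT with piericidin A and with both), 0 to 2 and 0 to 3 (difference between genotypes without and with LPS) and 1 to 3 (change by LPS), and stayed at 0 elsewhere. The causes were not tested.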
